A study of Homo sapiens with 6 samples.

Results

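The genes described here encode BET proteins and the machinery that controls P-TEFb, the kinase that releases RNA polymerase II into productive elongation. They are BRD2, BRD3, CDK9, CCNT1, CCNT2, HEXIM1, LARP7, MEPCE and CDK7, 9 of the 13572 genes tested. They were chosen by name, with earlier results of these data known. Every probe set annotated to one of them alone was taken, which gave 23 of the 54675 probe sets on the array. A probe set is a group of short probes whose combined brightness gives 1 log2 signal per array. RNA of Kasumi-1 cells was measured on 3 arrays after 20 nM homoharringtonine (HHT) for 24 h and on 3 arrays after vehicle for 24 h. Kasumi-1 is a human acute myeloid leukaemia line with the t(8;21) translocation, so all 6 arrays share 1 line and its RUNX1-RUNX1T1 fusion. HHT, an alkaloid from plum yews, inhibits the elongation step of translation, and the series title links it to MYC transcription. The labels do not say whether the arrays of a group came from separate cultures, so every p-value rests on array-to-array spread that could be technical alone. The sample titles number the vehicle arrays before the HHT arrays, and if that was the order of handling, it cannot be told apart from HHT.

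BET proteins bind acetylated histones through paired bromodomains and help to bring P-TEFb to promoters and enhancers. P-TEFb consists of the kinase CDK9 and a T-type cyclin, and it phosphorylates RNA polymerase II and the factors that hold it paused near the start site. A large share of P-TEFb is kept inactive in the 7SK ribonucleoprotein, built on the small nuclear RNA 7SK, in which HEXIM1 inhibits the kinase, LARP7 protects the end of the RNA and MEPCE caps its start. CDK7, the kinase of the transcription factor TFIIH, acts earlier at the promoter and also activates CDK9 by phosphorylation. In acute myeloid leukaemia, inhibitors of BET bromodomains and of CDK9 are known for lowering MYC transcription.

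Markers of the labelled cell type were bright in part. MPO, an enzyme of myeloid granules, had log2 signals of 12.48 to 12.85 in HHT and 14.32 to 14.47 in vehicle, and RUNX1T1, a fusion partner, had 13.16 to 13.23 in HHT and 13.20 to 13.27 in vehicle. KIT, a receptor of early blood cells, had 14.17 to 14.24 in HHT and 14.75 to 14.99 in vehicle. Of the 5 tested genes of this list MPO, KIT and CD34 fell, and RUNX1T1 and AZU1 were not called. The granule genes of the list other than MPO were dim. AZU1 averaged 5.21 ± 1.31 in HHT and 5.47 ± 0.464 in vehicle (SD, n = 3 each). PRTN3 lay below the filter at 3.32 ± 1.30 in HHT and 5.13 ± 0.803 in vehicle (SD, n = 3 each), and CD33 had no probe set of its own. The epithelial marker EPCAM was also bright, at 12.85 to 13.01 in HHT and 13.66 to 13.71 in vehicle, while CDH1 and KRT19 of the same list lay below the filter on dim probe sets. The 4 tested lymphoid markers were not called, with means of 4.94 to 7.15 in HHT and 5.36 to 7.44 in vehicle. The part of these markers in the results below was not tested.

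By the brightest probe set of each gene, most of the P-TEFb control genes had a higher signal after HHT. On that measure HEXIM1, CCNT2, BRD2, LARP7, CDK7 and CCNT1 rose, BRD3 fell, and CDK9 and MEPCE were not called, so that 6 rose and 1 fell of 9. A gene was called at a Benjamini-Hochberg adjusted p under 0.05 in limma's fit over all 32768 probe sets tested. Over all genes tested, 29.6% rose and 24.2% fell, 53.8% together. Among the 7696 genes at least as bright as the dimmest of the 9, 39.5% rose and 33.7% fell. The median change of the 9 genes was 0.58 on the log2 scale, against -4.15e-05 over all genes. The changes ran from -0.33 for BRD3 to 0.84 for HEXIM1, all below 1 log2 unit in size. All 3 HHT arrays lay above all 3 vehicle arrays for 7 of the 9 genes, against 33.2% of all genes, and below them for 1, against 29.0% of all genes. The groups overlapped for CDK9. With all probe sets of a gene averaged, 4 of the 9 rose and 0 fell by limma's test, also at an unadjusted p under 0.05, where 21.1% of all genes rose and 20.1% fell, 41.2% together.

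**Figure D1:**
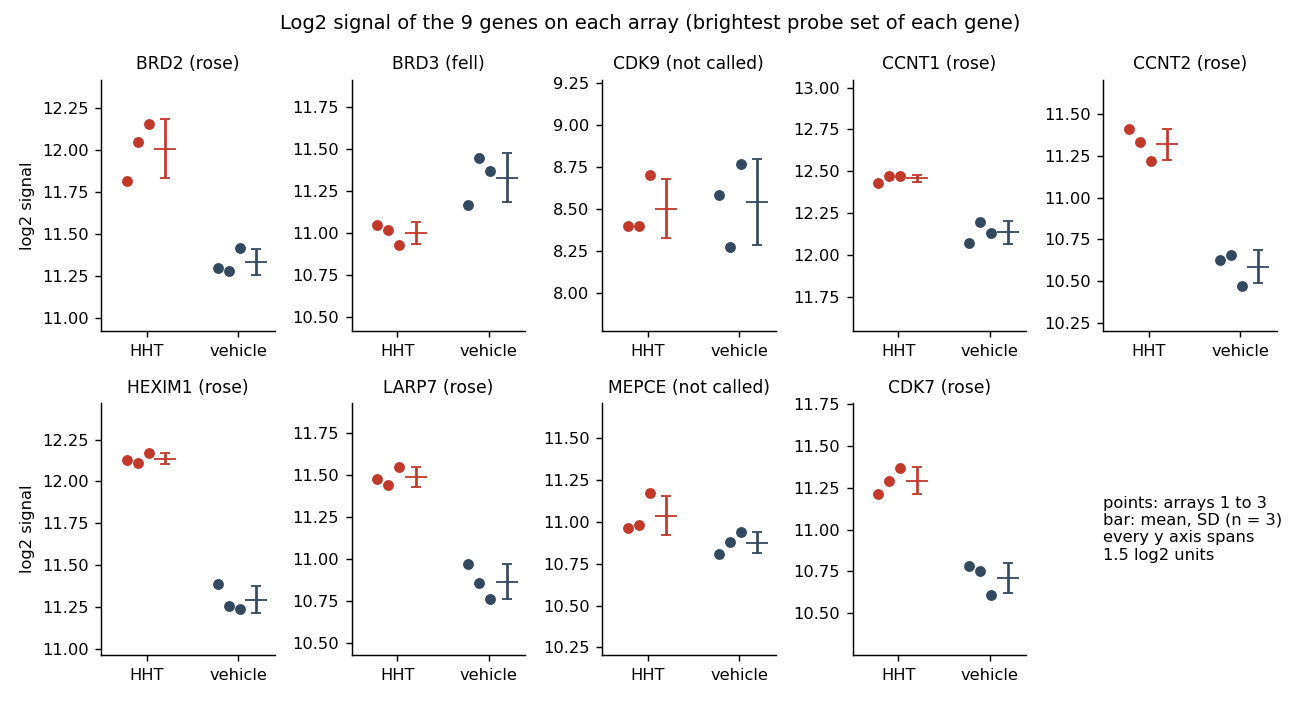
Log2 signal (y axes, all of the same span) of the brightest probe set of each of the 9 genes on the 3 HHT arrays and the 3 vehicle arrays, with the mean and SD of each group (n = 3). HHT points stand above all vehicle points for 7 genes, below them for BRD3 and among them for CDK9.

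Of the 23 probe sets, 21 passed the filter on dim signals and 2 did not, 1 for BRD3 and 1 for CDK9. Among the 21 tested, 11 rose, 1 fell and 9 were not called, where 23.0% of all tested probe sets rose and 23.3% fell. The dimmer probe sets of a gene often went uncalled, and their values are given with each gene.

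HEXIM1, which inhibits CDK9 within the 7SK ribonucleoprotein, had the largest change of the 9 by the brightest probe set, though not by the mean of all probe sets, where CCNT1 (0.68), BRD2 (0.67), CCNT2 (0.63) and CDK7 (0.58) exceeded its 0.33. Its log2 signal was 12.13, 12.11 and 12.17 on the HHT arrays, against 11.39, 11.26 and 11.24 on the vehicle arrays. The groups were separated by far more than the spread within either. It rose by 0.84 (SE 0.0641, 95% interval 0.70 to 0.98, adjusted p = 2.11e-06), a 1.79-fold higher signal. A second HEXIM1 probe set gave 10.16, 10.03 and 10.19 in HHT and 9.97, 9.55 and 9.83 in vehicle. It rose by 0.34 (SE 0.113, adjusted p = 0.0287), a call that quantile normalization ended (0.23, adjusted p = 0.127). The 2 probe sets thus moved the same way with changes of different size, and their 95% intervals, 0.70 to 0.98 and 0.09 to 0.59, did not overlap. The remaining one was dim, with means of 4.75 ± 0.990 in HHT and 4.95 ± 0.537 in vehicle (SD, n = 3 each), near the filter level of 4.80, and gave no usable direction (-0.19, 95% interval -1.63 to 1.24). Averaging all 3 gave 0.33, which was not called (adjusted p = 0.211).

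The promoter of HEXIM1 is shown because the gene had the largest change by its brightest probe set and was the sole one of the 9 with a TATAAA box in its RefSeq promoter windows, which run from 250 bases before to 50 after each start site. The bases before its start site lie on the plus strand of GRCh38.p14 at chr17:45148225-45148474, as given by RefSeq, and the capitals mark TATAAA, which begins 29 bases before the start site.
HEXIM1: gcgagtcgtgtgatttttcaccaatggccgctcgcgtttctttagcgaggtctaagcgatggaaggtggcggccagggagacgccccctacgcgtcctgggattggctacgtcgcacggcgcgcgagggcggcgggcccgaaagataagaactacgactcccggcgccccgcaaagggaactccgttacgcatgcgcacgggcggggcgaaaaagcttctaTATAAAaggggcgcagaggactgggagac
On either strand, TATAAA occurred in 11.5% of the 35116 windows in the table and in 1 of the 17 windows of the 9 genes. GGGCGG, the GC box, occurred in 45.0% of all windows and in 14 of those 17. A match is a run of letters in the window and no measured binding site.

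The genes whose profile over the 6 arrays lay nearest to that of HEXIM1 were PTPDC1, TDP2, RMC1, TLK2 and GLRX. The measure was the Euclidean distance between the 6 log2 signals of each gene, centred on their own mean, over one probe set per gene. The distances ran from 0.0516 for PTPDC1 to 0.0861 for GLRX, and the changes of these 5 genes from 0.82 to 0.90.

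LARP7, the protein that binds and stabilises 7SK RNA, also rose. Its brightest probe set read 11.48, 11.44 and 11.55 in HHT and 10.97, 10.86 and 10.76 in vehicle. Every HHT array was above every vehicle array, and the change was 0.63 (SE 0.0736, 95% interval 0.46 to 0.79, adjusted p = 4.60e-05). A pair of much dimmer LARP7 probe sets pointed opposite ways and were not called. One differed by -0.42 (adjusted p = 0.161), with means of 6.54 ± 0.0607 in HHT and 6.96 ± 0.270 in vehicle (SD, n = 3 each). Every HHT array lay below every vehicle array on that probe set. The other differed by 0.38 (adjusted p = 0.385), with means of 6.20 ± 0.301 in HHT and 5.82 ± 0.374 in vehicle (SD, n = 3 each). The mean of all LARP7 probe sets changed by 0.19, which was not called (adjusted p = 0.353).

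MEPCE, the enzyme that caps 7SK RNA, had 1 probe set, at 10.96, 10.98 and 11.17 in HHT and 10.81, 10.88 and 10.94 in vehicle. All HHT values exceeded all vehicle values, though narrowly. The difference of 0.16 was not called (SE 0.0783, 95% interval -0.01 to 0.34, adjusted p = 0.115). Making the array medians equal gave a called 0.40 (adjusted p = 0.0233), and making the hybridisation controls equal gave a called 0.45 (adjusted p = 0.000505). The 3 protein partners of 7SK RNA measured here therefore gave log2 changes of 0.84 for HEXIM1, 0.63 for LARP7 and 0.16 for MEPCE.

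The kinase subunit and the cyclins of P-TEFb gave different values. CDK9, the kinase itself, read 8.40, 8.40 and 8.70 in HHT and 8.58, 8.27 and 8.77 in vehicle on its brightest probe set. The groups overlapped, and the difference was -0.04 (SE 0.156, 95% interval -0.39 to 0.31, adjusted p = 0.859). Changes within that interval could not be resolved there. A dimmer CDK9 probe set read 7.62, 7.95 and 7.54 in HHT and 7.38, 7.24 and 7.31 in vehicle. There the groups did not overlap, but the difference of 0.40 was not called (SE 0.175, adjusted p = 0.0873). Equal medians gave a called 0.64 (adjusted p = 0.0157), and equal hybridisation controls a called 0.68 (adjusted p = 0.00939). The remaining CDK9 probe set was too dim to test, with means of 1.37 ± 0.858 in HHT and 3.27 ± 0.943 in vehicle (SD, n = 3 each).

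CCNT1, cyclin T1, is the partner of CDK9 that the HIV protein Tat binds. Its brightest probe set read 12.43, 12.47 and 12.47 in HHT and 12.07, 12.20 and 12.13 in vehicle. The groups were tight and separate, and the gene rose by 0.32 (SE 0.0576, 95% interval 0.19 to 0.45, adjusted p = 0.000889). A dimmer, more variable probe set read 8.29, 9.13 and 9.39 in HHT and 7.37, 7.90 and 8.47 in vehicle. HHT replicate 1 lay within the range of the vehicle arrays there. That probe set rose by 1.03 (SE 0.308, 95% interval 0.34 to 1.71, adjusted p = 0.0186), the largest called change of any of the 21 probe sets.

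CCNT2, cyclin T2, the other T-type partner of CDK9, rose on its pair of bright probe sets. The brightest read 11.41, 11.33 and 11.22 in HHT and 10.63, 10.66 and 10.47 in vehicle. HHT was higher on every array, by 0.73 (SE 0.0793, 95% interval 0.56 to 0.91, adjusted p = 2.54e-05). The next probe set read 11.06, 11.00 and 10.77 in HHT and 9.93, 10.13 and 10.16 in vehicle. It rose by 0.87 (SE 0.0981, adjusted p = 3.35e-05) and its 95% interval, 0.65 to 1.09, overlapped that of the first. Of the dim CCNT2 probe sets, one differed by 0.92 (95% interval 0.03 to 1.81, adjusted p = 0.0848) and the other by 0.02 (95% interval -0.46 to 0.49, adjusted p = 0.961), neither called.

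**Figure D2:**
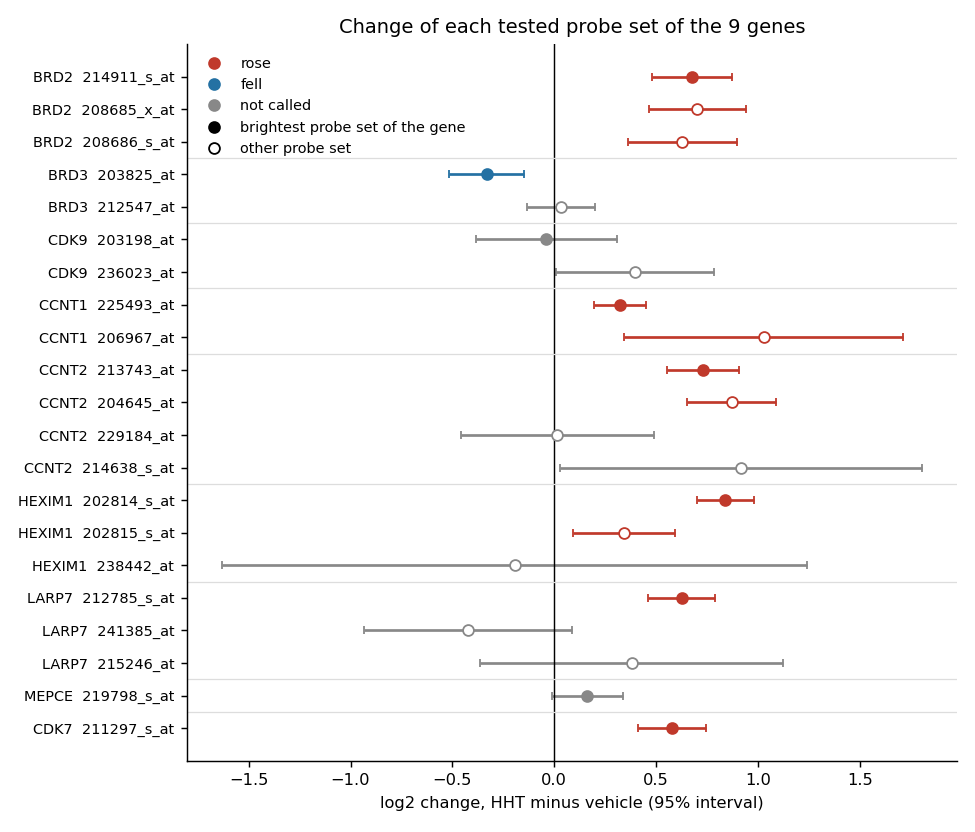
Log2 change, HHT minus vehicle, with its 95% interval (x axis) for each of the 21 tested probe sets of the 9 genes (rows), the brightest of each gene as a filled point and the others as open points. All 3 BRD2 probe sets rose by 0.63 to 0.70, while the pair for BRD3 gave -0.33 and 0.03 and the 3 for HEXIM1 gave 0.84, 0.34 and -0.19.

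Among the BET genes, BRD2 rose on all 3 of its probe sets. The brightest read 11.82, 12.05 and 12.16 in HHT and 11.30, 11.28 and 11.42 in vehicle. The groups did not overlap, and the change was 0.68 (SE 0.0887, 95% interval 0.48 to 0.87, adjusted p = 0.000102), a 1.60-fold higher signal. The other BRD2 probe sets rose by 0.70 (adjusted p = 0.000315) and 0.63 (adjusted p = 0.00141), both with separate groups. The first of these has an _x_at name, which the array maker gives to probe sets whose probes may also bind other transcripts. BRD2 gave the closest values between probe sets of any of the genes with over 1 tested.

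BRD3, the paralogue of BRD2, gave a less certain result. Its brightest probe set read 11.05, 11.02 and 10.93 in HHT and 11.17, 11.45 and 11.37 in vehicle. The groups were separate, and it fell by 0.33 on the log2 scale (SE 0.0834, 95% interval -0.52 to -0.15, adjusted p = 0.00744). A second probe set of nearly the same brightness read 11.08, 11.12 and 10.97 in HHT and 11.05, 11.09 and 10.92 in vehicle. It differed by 0.03 (SE 0.0747, 95% interval -0.13 to 0.20, adjusted p = 0.742), and the intervals of the 2 probe sets did not overlap. The fall lost its call at -0.09 once medians were equal (adjusted p = 0.582), at -0.05 once hybridisation controls were equal (adjusted p = 0.736), and without a variance trend (adjusted p = 0.0539). With equal hybridisation controls the second probe set was instead called higher (0.32, adjusted p = 0.0133). The dim remaining BRD3 probe set was not tested and had means of 3.99 ± 1.76 in HHT and 4.80 ± 0.188 in vehicle (SD, n = 3 each). Averaging it with the others gave -0.37 (adjusted p = 0.300).

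CDK7, the TFIIH kinase that phosphorylates both RNA polymerase II and CDK9, had 1 probe set. It read 11.21, 11.29 and 11.37 in HHT and 10.78, 10.75 and 10.61 in vehicle. Every HHT array was above every vehicle array, and the gene rose by 0.58 (SE 0.0753, 95% interval 0.41 to 0.75, adjusted p = 9.58e-05). CDK7 works in a complex with cyclin H and MNAT1, and these partners are given here although they were singled out after their values were seen. MNAT1, the assembly factor, averaged 10.92 ± 0.0935 in HHT and 10.10 ± 0.199 in vehicle (SD, n = 3 each) and rose by 0.82 (adjusted p = 7.87e-05). CCNH, the cyclin, averaged 12.39 ± 0.0445 in HHT and 12.68 ± 0.175 in vehicle (SD, n = 3 each) and fell by 0.29 (adjusted p = 0.0131). The call for CCNH was lost under the other 3 scalings, where it stood at -0.06 for equal medians (adjusted p = 0.728), at -0.18 for quantile normalization (adjusted p = 0.0767) and at -0.01 for equal hybridisation controls (adjusted p = 0.937).

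The scaling of the arrays can move the changes, so it was varied. The 18 probe sets that read spiked-in hybridisation controls averaged 11.70 ± 0.0598 in HHT and 11.98 ± 0.0282 in vehicle (SD, n = 3 each). Making them equal moved the median of all genes to 0.28, and making array medians equal moved it to 0.24. HEXIM1 then changed by 1.12 and 1.08, BRD2 by 0.96 and 0.91, and CCNT1 by 0.61 and 0.56. After quantile normalization 6 rose and 1 fell, as with the deposited values (background 29.8% and 22.9%, 52.8% together). HEXIM1, CCNT2, BRD2, LARP7, CDK7 and CCNT1 were called higher as deposited and under each of the 3 other scalings. With equal medians 7 of the 9 genes rose and 0 fell by limma's test (background 37.3% and 12.7%, 50.0% together), and with equal hybridisation controls likewise 7 rose and 0 fell (background 41.6% and 12.8%, 54.4% together). Neither BRD3, at -0.09 and -0.05, nor any other of the 9 was lower there at an unadjusted p under 0.05.

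**Figure D3:**
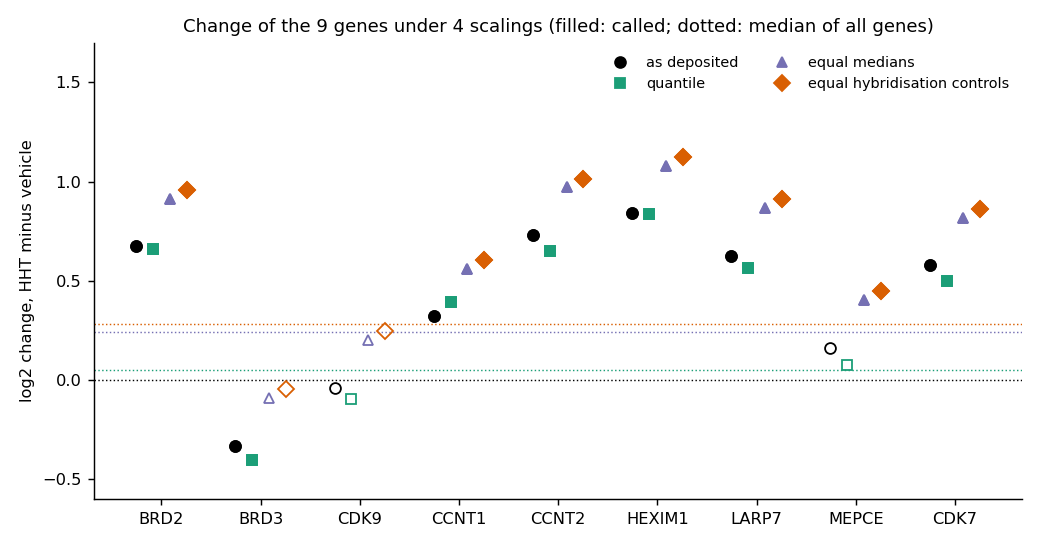
Log2 change, HHT minus vehicle (y axis), of the brightest probe set of each of the 9 genes (x axis) with the values as deposited and under 3 other scalings, filled where called, with the median of all genes under each scaling as a dotted line. Of the 9 genes, 6 were called higher under all 4, MEPCE under 2, and BRD3 was called lower under 2.

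Differences between probe sets within an array are left as they are by a shift of the whole array (equal medians or equal hybridisation controls), though not by quantile normalization, and 5 pairs were compared. The difference between probe sets is no ratio of transcripts, and it describes the brightest probe set of each gene alone, since probe sets of 1 gene differed by similar amounts. BRD2 minus BRD3 was 0.77, 1.03 and 1.24 in HHT and 0.13, -0.17 and 0.05 in vehicle. The HHT values were all higher, by 1.01 on average. HEXIM1 minus CDK9 was 3.73, 3.70 and 3.47 in HHT and 2.81, 2.99 and 2.47 in vehicle, higher by 0.88 for the inhibitor against its kinase. LARP7 minus MEPCE was 0.52, 0.46 and 0.38 in HHT and 0.16, -0.01 and -0.17 in vehicle, higher by 0.46. These are the partners that hold and cap 7SK RNA. CCNT1 minus CCNT2 was 1.03, 1.14 and 1.25 in HHT and 1.44, 1.54 and 1.66 in vehicle, a difference of -0.41, which quantile normalization brought to -0.26. CDK9 minus CDK7 was -2.82, -2.89 and -2.67 in HHT and -2.20, -2.49 and -1.84 in vehicle, a difference of -0.62. The groups were separate in all 5 pairs. How often other gene pairs separate was not counted. Of all single genes, 33.2% had every HHT array above every vehicle array and 29.0% every one below. Each pair had an exact permutation p of 0.1 (two-sided, 0.1 after Benjamini-Hochberg adjustment over the 5 pairs), the smallest that 3 against 3 arrays allow. When all probe sets of each gene were averaged, CCNT1 minus CCNT2 turned to 0.041, LARP7 minus MEPCE came to 0.032 and CDK9 minus CDK7 to -1.09. The last value takes in the CDK9 probe set too dim to test, which differed by -1.90. The tested CDK9 probe sets differed by -0.04 and 0.40.

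**Figure D4:**
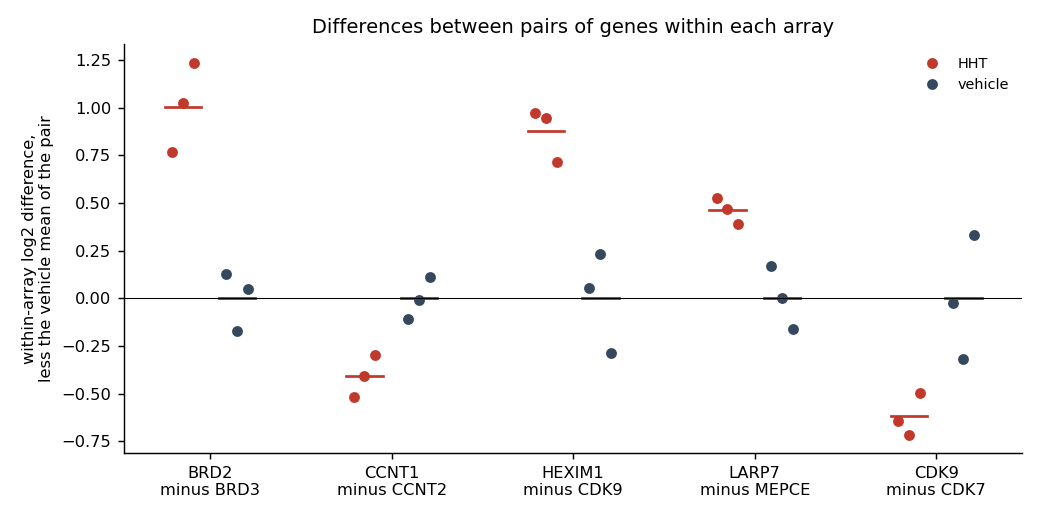
Log2 difference between the brightest probe sets of 5 gene pairs within each array, less the vehicle mean of the pair (y axis), for the 3 HHT and 3 vehicle arrays of each pair (points) with group means (lines). HHT and vehicle points are separate in all 5 pairs, with the widest gap in means, 1.01, for BRD2 minus BRD3. How often other gene pairs separate was not counted.

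The promoters of CCNT1, CDK7 and MEPCE are shown because they hold CACGTG, the E-box that MYC binds with MAX, and the study concerns MYC. MYC transcript itself averaged 9.75 ± 0.220 in HHT and 14.15 ± 0.0123 in vehicle (SD, n = 3 each) and fell by 4.40 (adjusted p = 5.29e-09). The stretches around the E-box, in capitals, are from RefSeq windows of GRCh38.p14, at chr12:48716896-48716957 on the minus strand for CCNT1, chr5:69234741-69234794 on the plus strand for CDK7 and chr7:100429283-100429368 on the plus strand for MEPCE.
CCNT1: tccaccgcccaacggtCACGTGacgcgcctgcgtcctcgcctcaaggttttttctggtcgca
CDK7: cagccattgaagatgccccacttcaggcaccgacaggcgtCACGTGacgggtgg
MEPCE: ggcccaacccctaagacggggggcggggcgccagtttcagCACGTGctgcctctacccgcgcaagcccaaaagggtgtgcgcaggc
The E-box begins 234, 14 and 124 bases before the start site in CCNT1, CDK7 and MEPCE. It occurred in 7.26% of all 35116 windows and in 4 of the 17 windows of the 9 genes. With the brightest probe set, the 3 genes with an E-box changed by 0.32, 0.58 and 0.16. No match in the windows of the other 6 genes says only that these letters are not there.

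With the values as deposited, other genes of the same pathway did not share one direction. Of 68 tested genes in 7 lists, 24 rose, 22 fell and 22 were not called (35.3% and 32.4%, against 29.6% and 24.2% of all genes), with a median of 0.08. With equal medians 34 rose and 8 fell (37.3% and 12.7% of all genes). With equal hybridisation controls 36 rose and 9 fell (41.6% and 12.8% of all genes), so most calls were upward under both. Of the genes named next for the size of their change, HEXIM2 (0.44), AFF4 (0.65), MLLT1 (-0.71), CDK12 (-0.24) and GTF2H5 (0.62) lost their call when all probe sets of a gene were averaged, with adjusted p of 0.0739 to 0.200.

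In the super elongation complex, which brings P-TEFb to paused polymerase, 5 of 11 genes rose and 2 fell, with a median of 0.35. AFF4, its scaffold, averaged 12.19 ± 0.0411 in HHT and 10.91 ± 0.149 in vehicle (SD, n = 3 each) and rose by 1.28 (adjusted p = 5.66e-07). A second AFF4 probe set rose by 1.65 (adjusted p = 0.000922), and 4 dimmer ones, between -0.20 and 1.12, were not called. MLLT1, a reader of acetylated histones in the complex, averaged 9.67 ± 0.142 in HHT and 10.73 ± 0.0741 in vehicle (SD, n = 3 each) and fell by 1.07 (adjusted p = 4.84e-06). MLLT3 was counted as higher at 0.96 (adjusted p = 4.12e-05), with 1 further probe set called higher and 1 called lower.

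Among relatives of the 7SK and BET genes, 2 of 3 tested rose and 1 fell. HEXIM2, the paralogue of HEXIM1, averaged 8.24 ± 0.191 in HHT and 7.10 ± 0.192 in vehicle (SD, n = 3 each) and rose by 1.14 (adjusted p = 0.000296). Its other probe set differed by -0.26 and was not called (adjusted p = 0.510). JMJD6, the second of the list to rise, changed by 0.30 (adjusted p = 0.0494) with overlapping groups. Only 1 of the list rose after quantile normalization, without a filter or with the replicate number as a block. With all probe sets of a gene averaged, 0 rose. PPM1G, a phosphatase that can release P-TEFb from the 7SK complex, fell by 0.32 (adjusted p = 0.0232), with overlapping groups. That call was lost with equal medians (-0.08), with equal hybridisation controls (-0.04), without a variance trend (adjusted p = 0.109), without vehicle replicate 3 (-0.24) and without HHT replicate 1 or 2 (-0.25 and -0.29).

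As deposited, pausing and elongation factors had 5 of 18 genes higher and 8 lower, with a median of -0.15. That direction depended on the scaling. With equal medians 7 rose and 3 fell (37.3% and 12.7% of all genes), with a median of 0.09. With equal hybridisation controls 8 rose and 4 fell (41.6% and 12.8% of all genes), with a median of 0.14. SUPT16H, a subunit of the histone chaperone FACT, averaged 11.26 ± 0.0450 in HHT and 12.44 ± 0.0128 in vehicle (SD, n = 3 each) and fell by 1.18 (adjusted p = 1.29e-07). On a dimmer probe set SUPT16H differed by -0.31, with no call (adjusted p = 0.539). SKIC8, shared by the PAF1 elongation complex and an RNA decay complex, fell on all 5 of its tested probe sets, by 0.72 on the brightest (adjusted p = 7.53e-06).

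Of 13 other genes for transcription kinases, their cyclins and the phosphatases of RNA polymerase II, 5 rose and 5 fell as deposited. With equal medians 7 rose and 1 fell (37.3% and 12.7% of all genes). With equal hybridisation controls likewise 7 rose and 1 fell (41.6% and 12.8% of all genes). CDK12, the elongation kinase that works with cyclin K, averaged 9.64 ± 0.00652 in HHT and 11.01 ± 0.143 in vehicle (SD, n = 3 each) and fell by 1.37 (adjusted p = 6.48e-07). It fell on 4 further probe sets, but 1 rose by 1.14 (adjusted p = 3.57e-05) and 1 was not called, so the probe sets of CDK12 disagree. CDK13 was counted as lower at -0.34 (adjusted p = 0.00623), but 2 of its other probe sets rose and 0 fell. RPAP2, a phosphatase of RNA polymerase II, averaged 11.40 ± 0.0826 in HHT and 10.16 ± 0.0830 in vehicle (SD, n = 3 each) and rose by 1.23 (adjusted p = 5.73e-07), and its second probe set rose by 1.48.

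**Figure D5:**
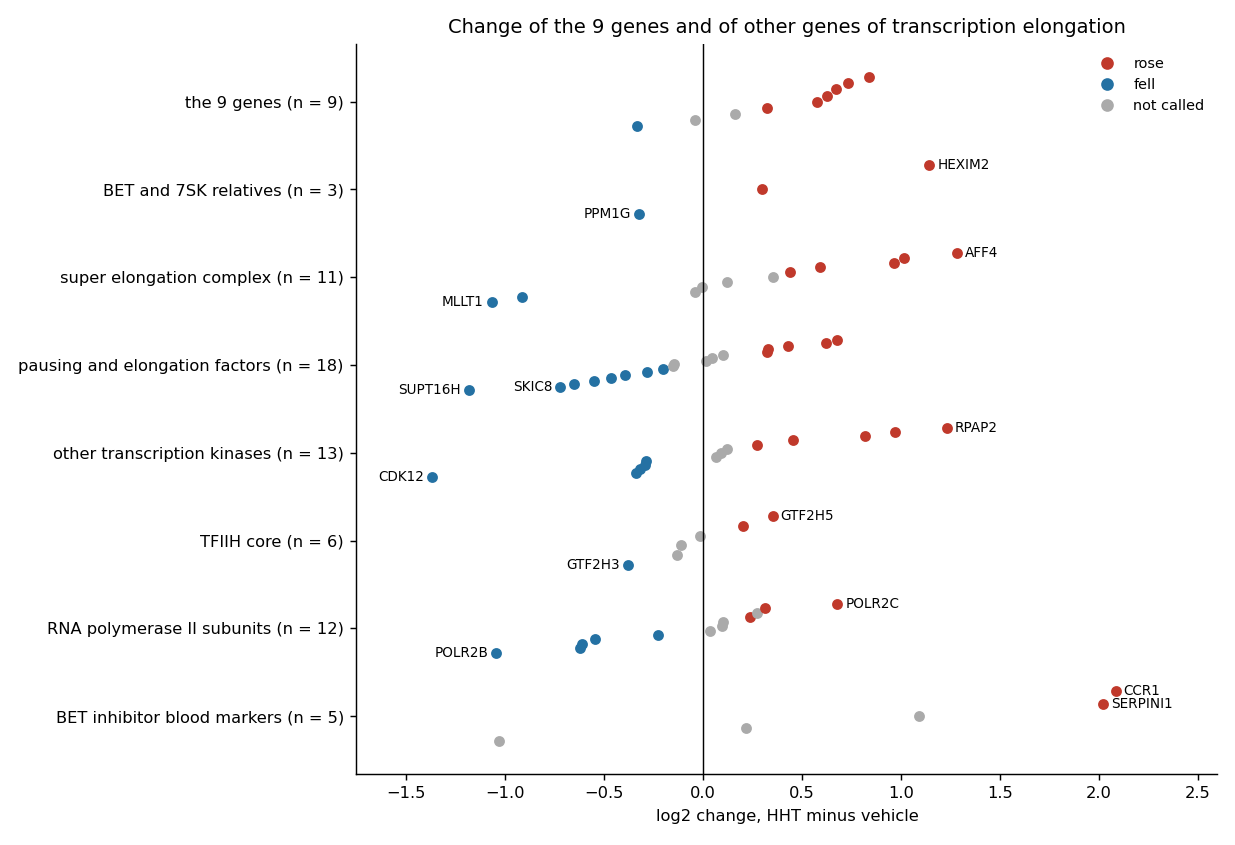
Log2 change, HHT minus vehicle (x axis), of the 9 genes and of the tested genes of 7 other lists (rows), each point 1 gene, coloured by its call. With the values as deposited, the 9 genes lie mostly right of 0, while the lists of pausing factors and RNA polymerase II subunits spread to both sides.

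In the TFIIH core, the rest of the factor that CDK7 belongs to, 2 of 6 genes rose and 1 fell. GTF2H1 rose by 0.20 (adjusted p = 0.0177), with 1 further probe set called higher and 1 called lower. GTF2H5 rose by 0.35 (adjusted p = 0.00556), a call lost without a variance trend (adjusted p = 0.0516), and GTF2H3 fell by 0.38 (adjusted p = 0.0324) with overlapping groups. The call for GTF2H3 was lost with equal medians (-0.14), with equal hybridisation controls (-0.10), without a variance trend (adjusted p = 0.135), without vehicle replicate 2 or 3 (-0.37 and -0.23) and without HHT replicate 1 or 3 (-0.34 and -0.38). Its second probe set fell by 0.41 with separate groups (adjusted p = 0.00111). Of the 12 RNA polymerase II subunits 3 rose and 5 fell as deposited, with a median of 0.07. With equal medians 7 rose and 3 fell (37.3% and 12.7% of all genes). With equal hybridisation controls likewise 7 rose and 3 fell (41.6% and 12.8% of all genes). POLR2B, which forms the catalytic core with the largest subunit, averaged 12.60 ± 0.0643 in HHT and 13.64 ± 0.00738 in vehicle (SD, n = 3 each) and fell by 1.04 (adjusted p = 1.71e-07). POLR2C averaged 12.01 ± 0.0903 in HHT and 11.33 ± 0.0864 in vehicle (SD, n = 3 each) and rose by 0.68 (adjusted p = 2.12e-05).

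A short list of genes followed in blood as markers of BET inhibition had 2 of 5 tested genes higher and 0 lower, and 0 lower also at an unadjusted p under 0.05 in limma's test. Of all genes tested, 29.6% rose and 24.2% fell. The list was not sorted by the direction each gene takes under BET inhibitors, so its counts do not measure a likeness to BET inhibition. SERPINI1, a neuronal serpin, read 8.30, 8.26 and 8.10 in HHT and 6.68, 5.27 and 6.66 in vehicle. It rose by 2.02 (SE 0.341, adjusted p = 0.000605), with vehicle replicate 2 well below the other vehicle arrays. The change of SERPINI1 was 1.55 without that array, and 1.36 with 64 added to each antilog signal. CCR1, a chemokine receptor, read 7.40, 7.43 and 7.73 in HHT and 5.54, 5.48 and 5.29 in vehicle and rose by 2.09 (SE 0.246, adjusted p = 4.72e-05). With 64 added to each antilog signal the change was 1.21, and CCR1 was too dim to be tested once the lowest 60% of probe sets were left out. CCR2 of this list was too dim to test, and ZCCHC24 (1.09, adjusted p = 0.227), CD180 (-1.03, adjusted p = 0.259) and H2BC21 (0.22, adjusted p = 0.633) were not called.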

How the data were processed

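RNA of 6 samples, 3 with HHT and 3 with vehicle, was measured on Affymetrix HG-U133 Plus 2.0 arrays. The deposited values are log2 signals, and the submitters' processing notes name MAS5. Their antilog trimmed mean (2% left off each end) was 500.06 to 500.07 on every array, so the authors' values carry a scaling to a common mean. The MAS5 version was not given in the sources used here. Arrays hold no counts, so their number limits the precision.

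Groups came from the sample labels. After 62 control probe sets were left out, the 40% of probe sets with the lowest mean (below 4.80) were filtered out, leaving 32768. limma 3.58.1 in R 4.3.3 (lmFit, eBayes with a variance trend) gave HHT minus vehicle, with Benjamini-Hochberg adjustment over all probe sets. Gene names came from the platform annotation, and 41037 were matched by Entrez ID to RefSeq's gene table for the current symbol. Of the probe sets 41091 had 1 gene, 1801 several and 11721 none, and those with 1 gene alone were named. A gene was represented by its brightest tested probe set. Differences in level between probe sets were not read as differences in transcript amount. The fit was tested on simulated data.

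The genes and lists were chosen with earlier results of these data known. The text names all 9 genes with every probe set, the 2 called genes of largest change in each of 7 lists with both means above the filter level, and the 5 genes nearest to HEXIM1. JMJD6, MLLT3, CDK13 and GTF2H1 are named besides, for the limits of their calls. The alternatives varied scaling, filter, pseudocount, variance trend, replicate block, threshold, probe set choice and single arrays.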

Additional observations from a re-analysis of the deposited data

How the results depend on the processing

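HEXIM1, CCNT2, BRD2, LARP7, CDK7 and CCNT1 were called higher in all 6 fits that left out an array, where 7 of the 9 genes and 48.4% to 52.1% of all genes were called each time, and under every scaling, filter, pseudocount and variance setting tried. Their calls did depend on how probe sets are combined and on a size threshold. With the mean of all probe sets of a gene, 4 of the 9 were called, all higher, against 41.2% of all genes, and HEXIM1 (0.33, adjusted p = 0.211), LARP7 (0.19, adjusted p = 0.353) and BRD3 (-0.37, adjusted p = 0.300) were not. That setting averages in their dim probe sets. It also turned CCNT1 minus CCNT2 to 0.041 and brought LARP7 minus MEPCE to 0.032. With a change of at least 1 log2 unit required, limma's test called 0 of the 9 genes, also at an unadjusted p under 0.05, against 15.5% of all genes, as well as 1 member probe set and 10 of the 68 other pathway genes. CDK9, whose brightest probe set was never called, changed sign to 0.20 with equal medians, 0.24 with equal hybridisation controls, 0.078 without vehicle replicate 3, 0.013 without HHT replicate 1 and 0.010 without HHT replicate 2, within a range of -0.18 to 0.078 when 1 array was left out. Leaving out 1 array gave 10 to 13 called probe sets of the 21 (40.2% to 44.1% of all probe sets) and 40 to 45 other pathway genes (48.4% to 52.1% of all genes). After quantile normalization 27 of the other pathway genes rose and 19 fell (29.8% and 22.9% of all genes). Without a variance trend 19 of them rose and 12 fell. Counted by probe set and not by gene, 6727 of all 32768 rose there and 6935 fell. The share of all genes was not counted for that setting. Same-numbered HHT and vehicle arrays did not clearly deviate together (correlations 0.065, -0.014 and 0.049, against -0.089 to 0.042 for arrays of different number). With 3 arrays per group and no word in the labels, this cannot exclude that the replicate numbers pair the samples. With the replicate number as a block 7 of the 9 genes (54.5% of all genes), 13 of their 21 probe sets (47.2% of all probe sets) and 45 other pathway genes were called. The cause of the other shifts was not tested. Dim probe sets near the filter level, such as the dimmest of HEXIM1, could not resolve changes below 1 log2 unit.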
